A study of Mus musculus with 2 samples.

Results

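Dividing cells were sought in the NaIO3 library of a mouse eye study by 5 genes of mitosis and chromosome handling, Mki67, Top2a, Cdk1, Birc5 and Ccnb1. A barcode was a member where these summed to at least 3 unique molecular identifiers (UMIs). Quality limits of 500 detected genes or more and no more than 25% mitochondrial counts left 3944 NaIO3 barcodes, and 179 of 3944 were members (4.54%, 3.91 to 5.24). The same rule took 25 of 4387 PBS barcodes (0.570%, 0.369 to 0.840). Over both libraries 8331 of 8676 barcodes were kept. These UMIs chose the members, so the levels of the 5 genes in them describe the choice and carry no test.

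The tissue came from C57BL/6J mice and consisted of retinal pigment epithelium (RPE), the pigment layer under the photoreceptors, with the choroid, the vessel layer below. Mice of the NaIO3 group had 20 mg/kg sodium iodate, an oxidant toxic to the RPE, by the intravenous route. PBS mice had an equal volume of phosphate-buffered saline, and both labels state 7 days. The eyes of 6 mice were pooled into 1 droplet library for each group, after the front of the eye and the neural retina had been dissected off and brown hexagonal cells picked under the microscope. Age and sex are not given in the labels. With 1 library per group there is no replicate error and no p-value, and every interval (exact, 95%) covers counting error only.

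A dividing cell first copies its DNA in S phase, with the MCM helicase, the sliding clamp and the enzymes that supply nucleotides. It then condenses and parts its chromosomes in mitosis, which Cdk1 with cyclin B drives and the anaphase ubiquitin ligase ends. Mki67 coats mitotic chromosomes, Top2a untangles them, Ccnb1 is cyclin B1, and Birc5 (survivin) belongs to the complex that corrects spindle attachment. Adult RPE is regarded as a resting layer, the surface epithelium of cornea and conjunctiva is renewed from basal cells with Krt14 and Krt15, and macrophages can divide within a tissue.

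Each barcode was placed in a class by marker UMIs per 10000: RPE (Rpe65, Rlbp1, Rgr, Lrat and Rdh5, at least 100), surface epithelium (Krt5, Krt14, Krt12, Krt15 and Krt4, at least 60) and macrophage (Tyrobp, Fcer1g, Ctss, C1qa, C1qb and C1qc, at least 30). The NaIO3 library held 51168520 UMIs, with a median of 9792.5 per barcode, and the PBS library 51055592, with a median of 10024.5. The libraries shared 24 barcode sequences, of which 1 was a NaIO3 member and 0 were PBS members. In pigment barcodes, those with at least 50 RPE-marker UMIs per 10000 and under both other limits, the median outside dividing cells was 12.9 surface epithelium and 10.9 macrophage UMIs per 10000 in NaIO3, against 0 and 0 in PBS. Keratins at that level in NaIO3 barcodes are not read as expression. Rods, which do not divide, gave a rough level of stray rule-gene UMIs, from few barcodes. Any were seen in 1 of 34 NaIO3 barcodes with rod markers (2.94%, 0.0744 to 15.3, median 8668.5 UMIs). In PBS they were seen in 2 of 89 (2.25%, 0.273 to 7.88, median 4543 UMIs), and 0 of these rod barcodes were members.

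Many genes of mitosis are known to be switched on together through promoter elements called the cell cycle homology region, TTTGAA, and the CCAAT box. These letters are shown for 3 of the genes that stood highest in dividing cells, Ube2c, Cdc20 and Cks1b, and for Cdk1, the rule gene that most RPE-class members rest on. The 150 bases before the start of each gene are from RefSeq (GRCm38.p6), read in the direction of the gene, with both elements in capitals on either strand (ATTGG and TTCAAA are the same letters on the other strand).
Ube2c (chr2:164769779-164769928, plus strand): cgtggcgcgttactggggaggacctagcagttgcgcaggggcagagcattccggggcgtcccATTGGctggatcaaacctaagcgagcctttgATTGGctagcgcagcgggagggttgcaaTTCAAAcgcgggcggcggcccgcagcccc
Cdc20 (chr4:118437344-118437493, minus strand): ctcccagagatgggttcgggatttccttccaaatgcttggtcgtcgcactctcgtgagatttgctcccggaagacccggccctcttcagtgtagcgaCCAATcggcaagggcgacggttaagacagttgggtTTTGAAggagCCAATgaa
Cks1b (chr3:89418292-89418441, minus strand): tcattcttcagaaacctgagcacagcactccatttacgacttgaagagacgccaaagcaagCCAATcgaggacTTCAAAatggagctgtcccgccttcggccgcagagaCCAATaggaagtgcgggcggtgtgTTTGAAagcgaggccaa
Cdk1 (chr10:69352913-69353062, minus strand): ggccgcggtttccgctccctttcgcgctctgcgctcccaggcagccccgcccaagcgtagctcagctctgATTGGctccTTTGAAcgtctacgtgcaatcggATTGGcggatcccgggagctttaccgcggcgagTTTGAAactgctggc

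The nearest TTTGAA lay 29 bases before the start in Ube2c, 18 in Cdc20, 17 in Cks1b and 15 in Cdk1. Each of the 4 windows also held 2 CCAAT boxes, and the elements share no letters there. Over windows of 300 bases (250 before to 50 after the start), TTTGAA was found on either strand in 17.9%, CCAAT in 37.4% and both in 6.95% of 32851 windows. Of the 22 genes named below as highest in dividing surface epithelium or dividing macrophages, 15 had a window, with TTTGAA in 12, CCAAT in 12 and both in 11. Here a gene was counted where any of its windows matched. Counted in that way over 27025 genes, TTTGAA was in 20.2%, CCAAT in 41.1% and GCGGGAA, described next, in 5.29%. GCGGGAA, an element of E2F sites in replication genes, was in 0 of the 15 and in 4.60% of all windows. These are matches of letters and say nothing of binding.

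Members were unevenly spread over the classes. Surface epithelium gave 95 of 687 barcodes in NaIO3 (13.8%, 11.3 to 16.6), against 3 of 70 in PBS (4.29%, 0.893 to 12.02). Macrophages gave 27 of 504 in NaIO3 (5.36%, 3.56 to 7.70), against 0 of 121 in PBS, which allows a share of up to 2.48%. The RPE class gave 42 of 2238 in NaIO3 (1.88%, 1.36 to 2.53), against 21 of 3614 in PBS (0.581%, 0.360 to 0.887). A further 12 NaIO3 members and 1 PBS member were in no class, and 3 NaIO3 members were in more than 1 class, of which 2 ranked as likely doublets. Surface epithelium held 53.1% of the NaIO3 members and 17.4% of the NaIO3 barcodes. The NaIO3 and PBS intervals overlapped in surface epithelium and did not in macrophages or the RPE class. Once barcodes were thinned to an equal depth, as given below, those of all 3 classes overlapped. Thinning also left fewer members and wide intervals, so that overlap does not show equal shares. RPE-class barcodes had a median of 9718 UMIs in NaIO3 and 11486.5 in PBS. Macrophage barcodes had a median of 11443 UMIs in NaIO3 and 4150 in PBS, and the limit of 2.48% holds only for 3 UMIs at that PBS depth.

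**Figure D1:**
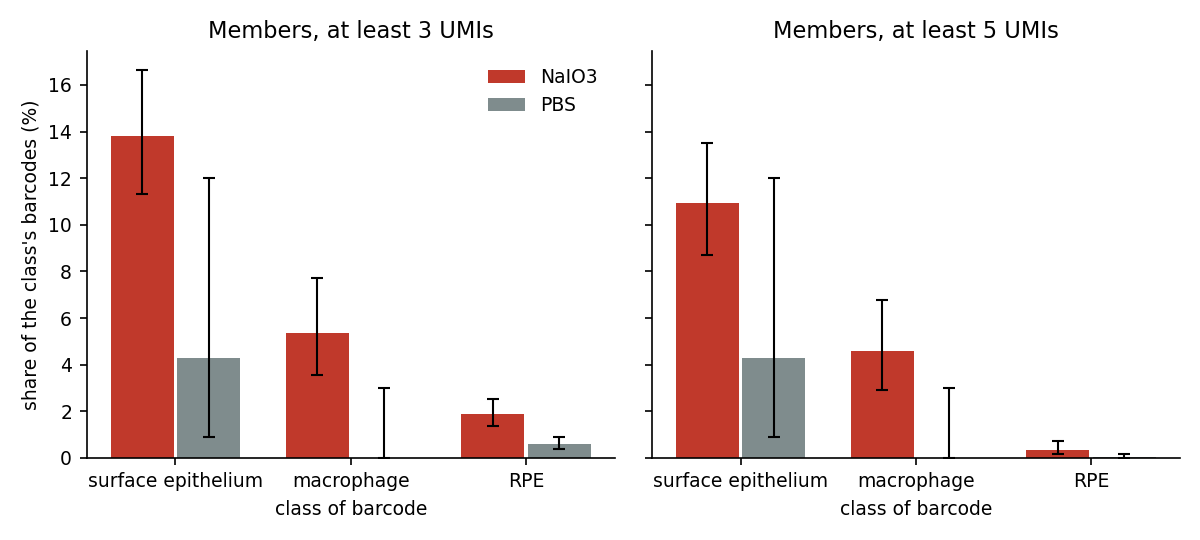
Share of barcodes (%) with at least 3 (left) or at least 5 (right) UMIs of the 5 rule genes in each class, in the NaIO3 and PBS libraries; error bars are exact 95% binomial intervals for counting error. At 3 UMIs the RPE class reads 1.88% in NaIO3 and 0.581% in PBS, and at 5 UMIs 0.357% in NaIO3 and 0.0277% in PBS, while surface epithelium reads 10.9% in NaIO3 and 4.29% in PBS at 5 UMIs.

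The limit of 3 UMIs took in barcodes of very different kinds. In the NaIO3 library 48 members had exactly 3 rule UMIs, 15 had 4, 36 had 5 to 9 and 80 had 10 or more, with 190 barcodes just outside the limit at 2. In PBS 16 had 3, 5 had 4, 0 had 5 to 9 and 4 had 10 or more, with 76 at 2. Members with at least 5 UMIs numbered 116 of 3944 in NaIO3 (2.94%, 2.44 to 3.52) and 4 of 4387 in PBS (0.0912%, 0.0248 to 0.233). Those with 3 or 4 were 63 of the 179 NaIO3 members and 21 of the 25 PBS members. Members were deeper than other barcodes, with a median of 13812 UMIs against 9892 in NaIO3. With every barcode thinned to 4000 UMIs, 95 of 3944 NaIO3 barcodes (2.41%, 1.95 to 2.94) and 5 of 3947 PBS barcodes (0.127%, 0.0411 to 0.295) met the rule, with 0 NaIO3 and 440 PBS barcodes too shallow and left out. Thinned shares were 9.61% in NaIO3 (7.51 to 12.1) and 4.69% in PBS (0.977 to 13.1) for surface epithelium. For the RPE class they were 0.268% in NaIO3 (0.0984 to 0.583) and 0.0573% in PBS (0.00694 to 0.207). For macrophages they were 3.37% in NaIO3 (1.98 to 5.35) and 0 of 74 in PBS, which allows up to 4.05%. The NaIO3 and PBS intervals overlapped in each class but not over all barcodes. The thinned RPE class held 6 members in NaIO3 and 2 in PBS, too few for overlap to show equal shares.

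Genes that the rule did not use separated the low members from the rest. The genes Cenpf, Ube2c, Ccnb2, Nusap1 and Tpx2, also of mitosis, reached 3 UMIs in 125 NaIO3 and 9 PBS barcodes. This mitosis set held 106 NaIO3 members, which is 59.2% of the members and 84.8% of the set. It held 99 of the 116 NaIO3 members with at least 5 rule UMIs, and 7 of the 63 with 3 or 4. All 7 of those were surface epithelium, and 0 of the 34 RPE-class members with 3 or 4 UMIs were among them. A set of DNA replication genes (Rrm2, Uhrf1, Cdc6, Cdc45 and Clspn) took 56 NaIO3 and 5 PBS barcodes and held 52 NaIO3 members. The sets count different genes of the same barcodes and share their depth.

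**Figure D2:**
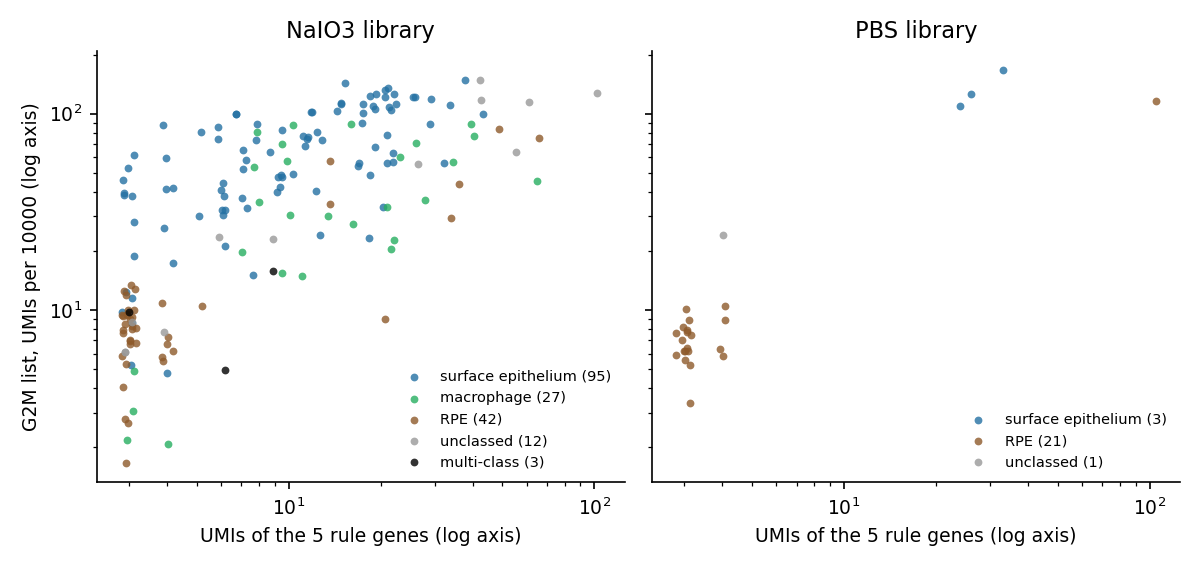
Each point is 1 member, with its UMIs of the 5 rule genes (log axis, spread slightly sideways) against its UMIs per 10000 of G2 and mitosis genes that leave out the rule genes (log axis), coloured by class, NaIO3 left and PBS right. Surface epithelium and macrophage members of NaIO3 have medians of 61.4 and 35.4 per 10000, while RPE-class members with 3 or 4 rule UMIs have medians of 7.97 in NaIO3 and 6.74 in PBS.

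A list of 48 genes of G2 and mitosis (G2M) and a list of 42 genes of S phase, both without the rule genes, gave a level per barcode. NaIO3 surface epithelium members had a median of 61.4 G2M UMIs per 10000 (quartiles 39.1 and 100), against 8.52 in the other surface epithelium barcodes. NaIO3 macrophage members had 35.4 (20.1 and 65.3), against 3.75 in the other macrophages. RPE-class members with at least 5 rule UMIs had 39.3 (24.6 and 61.9). RPE-class members with 3 or 4 rule UMIs had 7.97 (6.30 and 9.43), against 7.69 in the other RPE barcodes, so their level was close to that of the class. The 3 dividing surface epithelium barcodes of PBS had 166, 126 and 109 G2M UMIs per 10000 and UMIs of all 5 rule genes, each above the upper quartile of the NaIO3 ones.

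The data do not bear out the name dividing for the RPE-class members with 3 or 4 rule UMIs. Of the rule UMIs in the 34 such NaIO3 members, 83.3% were Cdk1, and 21 of the 34 had Cdk1 alone. In the 20 such PBS members the Cdk1 share was 92.2%, with 16 on Cdk1 alone. These barcodes were deep, with a median of 20276 UMIs in NaIO3 and 18177 in PBS. Cdk1 was also present in RPE barcodes that are not members, in 22.6% of 2196 in NaIO3, at 21.8 CPM (counts scaled to an equal total in each set of barcodes), and at 15.1 CPM in PBS. The other 4 rule genes lay between 0.956 (Mki67) and 3.48 CPM (Birc5) in those NaIO3 barcodes. Cdk1 was at 6.61 CPM in other surface epithelium and at 12.2 CPM in other macrophages of NaIO3. Without Cdk1 in the rule, members made up 0.357% of the RPE class in NaIO3 and 0.0277% in PBS. The part of depth in these memberships was not tested beyond the thinned shares.

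Nor do the data bear out that name for the 4 NaIO3 macrophage members with 3 or 4 rule UMIs. They had a median of 2.63 G2M UMIs per 10000, against 3.75 in the other macrophages, and 0 of the 4 were in the mitosis set. The 23 macrophage members with at least 5 rule UMIs had 45.6. The 20 surface epithelium members with 3 or 4 rule UMIs had 32.9, against 8.52 in the other surface epithelium barcodes. The ratios below take all members of a class, these included.

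In surface epithelium and macrophages the rule UMIs were spread over more genes. Of the 95 NaIO3 surface epithelium members, 29 had UMIs of all 5 rule genes, 22 of 4 and 25 of 3. Top2a was seen in 86 (median 4 UMIs, highest 14), Birc5 in 77 (2, highest 15), Cdk1 in 76 (2, highest 10), Mki67 in 54 (1, highest 7) and Ccnb1 in 50 (1, highest 14). Of the 27 NaIO3 macrophage members, 8 had all 5 genes and 10 had 4. There Birc5 was seen in 25, with a median of 5 UMIs and 22 at most. The rule gene seen most often was thus Top2a in surface epithelium and Birc5 in macrophages, a difference that was not tested.

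Dividing surface epithelium stood at the Krt14 and Krt15 end of the class. Krt14 marks basal cells, Krt15 basal cells and the limbus at the corneal rim, and Krt12 differentiated corneal epithelium. By the keratin with the most UMIs in a barcode, 22 of 40 Krt14-led NaIO3 barcodes were members (55.0%, 38.5 to 70.7), 68 of 229 Krt15-led (29.7%, 23.9 to 36.1) and 5 of 411 Krt12-led (1.22%, 0.396 to 2.82). In PBS the counts were 1 of 2 Krt14-led, 2 of 18 Krt15-led and 0 of 48 Krt12-led. The NaIO3 intervals of the 3 keratins did not overlap, and the PBS intervals did. These keratins are part of the sum that defines the class, but that sum is the same for all 3. Of the 7 Krt13-led NaIO3 barcodes 0 were members.

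**Figure D3:**
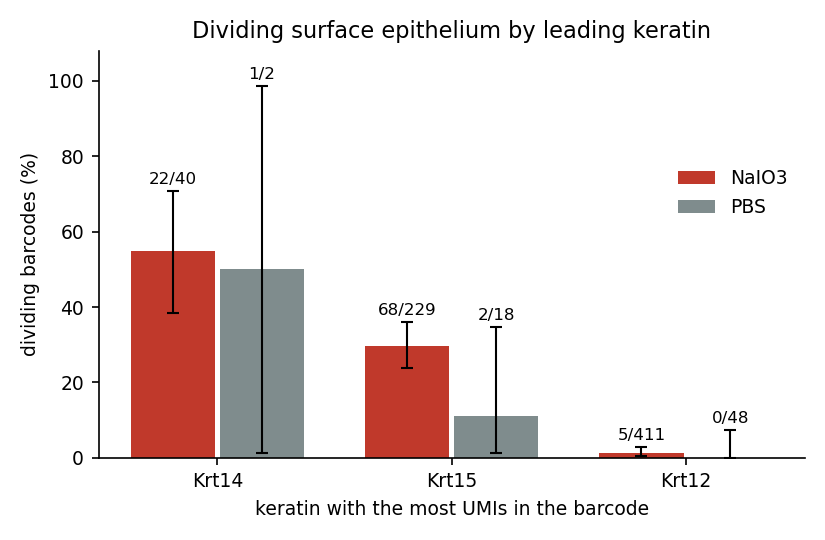
Share of surface epithelium barcodes that are members (%) by leading keratin, NaIO3 and PBS. The leading keratin has the most UMIs among Krt14, Krt15, Krt12, Krt4 and Krt13, with Krt5 left out. Members and barcodes stand over each bar, with exact 95% binomial intervals for counting error. In NaIO3 the share is 55.0% for Krt14, 29.7% for Krt15 and 1.22% for Krt12, and the PBS interval for Krt14, with 2 barcodes, spans most of the axis.

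Per barcode, Krt14 had a median of 62.1 (quartiles 39.1 and 74.1) UMIs per 10000 in the 95 NaIO3 members, against 2.93 (quartiles 0.677 and 25.4) in the 592 others. Krt15 had 93.6 (quartiles 65.2 and 150.4) in members and 16.7 (quartiles 3.79 and 123) in others. Krt12 had 5.21 (quartiles 3.75 and 7.71) in members and 237 (quartiles 10.2 and 337) in others, and 25.3% of the Krt12 counts in members came from 1 barcode. The quartile ranges of members and others overlapped in Krt15 and did not in Krt14 or Krt12, while the full ranges overlapped in all 3. Trp63, the transcription factor of stratified epithelial basal cells, was seen in 64.2% of members and 29.6% of others. Pax6, the eye field transcription factor, was seen in 94 of the 95 members, with a median of 5.07 UMIs per 10000, and in 90.9% of others. The 3 PBS members had 16.2 to 79.5 Krt14, 37.9 to 104 Krt15 and 0 Krt12 UMIs per 10000, and all 3 had Pax6.

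Summed counts of the 95 dividing and the 592 other NaIO3 surface epithelium barcodes were then set against each other gene by gene (ratios of CPM, with 0.5 counts added to each side). Among 8519 genes with at least 50 counts, 16.3% were at least 2-fold higher in dividing barcodes and 9.17% at least 2-fold lower, with a median log2 ratio of 0.24. The cells were chosen by 5 genes of the same profile, so these counts and those of the gene lists below are descriptions from which nothing further is read. Of the genes past 2-fold 64.0% were higher. TMM scaling, which centres on the bulk of genes, lowers each log2 ratio by 0.37, and 35.8% are then higher. Mitochondrial counts had a median of 4.76% in dividing and 2.73% in other barcodes, and depth a median of 9928 against 9045 UMIs. Their part in these ratios was not tested.

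The genes highest in dividing surface epithelium were mostly those of mitosis. Ranked first by the interval bound nearest to 1 was Hist1h2ap, a replication histone, with 1353 CPM in dividing against 21.01 CPM in other barcodes. Ube2c, the enzyme that hands ubiquitin to the anaphase ligase, was seen in 68 of 95 members (71.6%) and 5.07% of others. It had 300.1 CPM in dividing against 4.85 CPM in other barcodes, a ratio of 61.1 (43.3 to 91.4). Cdc20, which activates that ligase, was seen in 71.6% of members and 3.89% of others, with a ratio of 58.4 (40.4 to 90.1). Aurkb, the kinase of the chromosomal passenger complex, was seen in 39 of 95 members (41.1%) and 0.338% of others, with 54 counts in dividing against 2 in other barcodes. No single member carried more than 8.93% of the Ube2c or 7.88% of the Cdc20 counts. Tpx2, a spindle assembly factor, had 86 counts in dividing against 5 in other barcodes, and Nusap1, a spindle protein, 142 counts in dividing against 9 in other barcodes. Pbk (a mitotic kinase), Prc1 and Anln (cytokinesis), Cdca8 and Cenpa (centromere), Ccnb2 (cyclin B2), Cdca3 and Ckap2 completed the mitotic genes, with log2 ratios of 5.05 (Cenpa) to 6.55 (Pbk). 2810417H13Rik, a partner of the sliding clamp, had 234 CPM in dividing against 4.995 CPM in other barcodes. Hist1h2ap has near-identical copies, and Ube2c, Cdc20, Nusap1, Prc1 and 2810417H13Rik overlap genes on the opposite strand, so their counts are less certain. Other named genes with such an overlap, and the same doubt, are Ccna2, Ccnd1, Ccnd2, Ccnd3, Cdc25b, Cdc45, Cdk4, Cx3cr1, Egfr, Hspa1a, Itgb4, Knstrn, Krt12, Lamb3, Lockd, Lrat, Orc6, P2ry12, Pax6, Pbp2, Pmel, Rhobtb1, Serpine3, Slc7a5, Slurp1, Tagln and Tk1. Clasrp, Cx3cr1, Lamb3 and Rdh5 overlap genes on their own strand.

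By list, 31 of 32 measured G2M genes were 2-fold higher (median log2 ratio 4.16) and 21 of 22 measured S genes (2.48), with 0 lower in both. Of the genes of origin licensing and the MCM helicase 6 of 6 were higher, with Mcm5 at a ratio of 9.17 (5.20 to 16.8) and Orc6, a subunit of the origin complex, at 4.82 (3.08 to 7.45). Of the genes of the fork and nucleotide supply 13 of 13 were higher. They ran from Prim1, the primase, at 2.77 (1.495 to 4.81), through Tyms, the thymidylate synthase, at 18.8 (12.5 to 29.7), and Rrm2, a ribonucleotide reductase subunit, at 32.8 (19.9 to 60.01), to 2810417H13Rik at 46.3. Of the histone and chromatin genes 12 of 12 were higher, with Hmgb2, a DNA-bending protein, at 10.5 (9.72 to 11.3). The counts were 10 of 11 for kinetochore and checkpoint genes (median 4.18), 9 of 9 for spindle genes (4.47), 4 of 4 for cytokinesis genes (3.95) and 6 of 6 for condensin and cohesin genes (2.38). Lists count only genes with 50 counts, which a gene can reach through the members alone.

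Cyclins and their partners differed by phase. Ccnb2, a mitotic cyclin, had a ratio of 46.5 (27.4 to 90.5), and Ccna2, the cyclin of S phase and G2, 28.7 (16.8 to 55.2). Cks2 and Cks1b, small subunits of the cyclin kinases, had 25.2 (20.5 to 31.6) and 18.4 (13.9 to 24.97), and Cdc25b, a phosphatase that opens mitosis, 20.1 (12.5 to 35.0). The D cyclins of G1 stayed under 2-fold, Ccnd1 at 1.69 (1.40 to 2.01), Ccnd2 at 1.5 (1.10 to 1.99) and Ccnd3 at 1.28 (0.982 to 1.63), while their kinase Cdk4 had 4.21 (3.43 to 5.15). Among 11 inhibitors and pocket proteins 4 were 2-fold higher and 2 lower. Cdkn3, a phosphatase of Cdk1 and Cdk2, had 35.0 (18.6 to 79.8), and the INK4 inhibitors Cdkn2d and Cdkn2c 6.54 (4.70 to 9.12) and 5.33 (3.85 to 7.35).

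The lower inhibitors were Cdkn1a (p21) and Cdkn2b (p15). Cdkn1a had a ratio of 0.368 (0.327 to 0.410), with a median of 1.30 UMIs per 10000 in members and 5.58 in others, and 28.0% of its counts in members came from 1 barcode. Cdkn2b had 0.440 (0.321 to 0.580). Cdkn2a, which encodes p16 and ARF, had 15 counts in dividing against 135 in other barcodes and a ratio of 0.673 (0.356 to 1.12). Beside Cdkn1a, the p53 target list had 2 of 11 higher, Phlda3 at 2.13 and Aen at 2.40, and a median log2 ratio of -0.07.

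Genes of the basal layer and of ribosome building were mostly higher, and genes of wound keratinocytes and of interferon response mostly lower. Of 11 basal genes 8 were 2-fold higher, led by Itgb4, an integrin of the hemidesmosome, at 9.85 (7.02 to 14.01), and Lamb3, a laminin chain of the basement membrane, at 6.77 (4.81 to 9.57). Krt5, the partner keratin of Krt14, had 0.638, short of 2-fold. Ribosome biogenesis genes were higher in 10 of 10 (median log2 ratio 1.88), among them Npm1 (nucleophosmin) at 4.22 (3.801 to 4.68) and Ncl (nucleolin) at 3.38 (2.97 to 3.84). Of 8 wound keratinocyte genes 6 were lower, such as Krt16 with 236 CPM in dividing against 2602 CPM in other barcodes. The wound gene that was higher, Krt17 at 4.70 (4.42 to 4.99), is also on the basal list. Of 10 interferon genes 6 were lower, with Isg15, a ubiquitin-like protein, at 0.148 (0.117 to 0.184), and 1 was higher, Ifi27l2a at 2.19.

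Of 8 corneal genes 4 were lower and 0 higher (median log2 ratio -0.86), and of 7 conjunctival genes 2 were lower and 0 higher (-0.18). Among growth factor genes Hbegf, a ligand of the EGF receptor, had 149.6 CPM in dividing against 679 CPM in other barcodes, and the receptor Egfr had a ratio of 1.01 (0.720 to 1.37). The genes lowest in dividing barcodes included Lce3a, Crct1, Krt78, Asprv1 and Krt16 of cornified or outer epithelium, with Psca, Slurp1, Ifit1bl1, Pbp2 and AA467197. Slurp1, a secreted protein of the corneal surface, had a median of 2.85 UMIs per 10000 in members and 96.0 in others. Of its 1260 counts in members 30.7% came from 1 barcode.

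Because dividing and other barcodes differed in leading keratin, the comparison was also made, after these values were seen, within the 269 barcodes led by Krt14 or Krt15, of which 90 were members and 179 not. There 5.22% of 5457 genes were 2-fold higher and 3.65% lower. G2M genes were higher in 27 of 29 (median log2 ratio 3.82) and S genes in 14 of 17 (1.93). Ribosome biogenesis genes were higher in 3 of 9 (median 0.80) and basal genes in 2 of 11 (0.54). Interferon genes were lower in 3 of 9 (-0.60) and wound genes in 2 of 5 (-0.77). Conjunctival genes were lower in 4 of 7 (-1.06) and corneal genes in 2 of 7 (-0.20), with 0 higher in both. Within these barcodes Cdkn1a had a ratio of 0.619 (0.521 to 0.730) and Isg15 0.363 (0.259 to 0.493). The inhibitors Cdkn3, at 14.6 (6.83 to 44.5), Cdkn2d, at 3.92 (2.57 to 6.24), and Cdkn2c, at 2.58 (1.76 to 3.85), were past 2-fold here too. Krt17 had 1.28 (1.203 to 1.36). The Krt12-led barcodes, with 5 members, were too few for the same comparison.

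**Figure D4:**
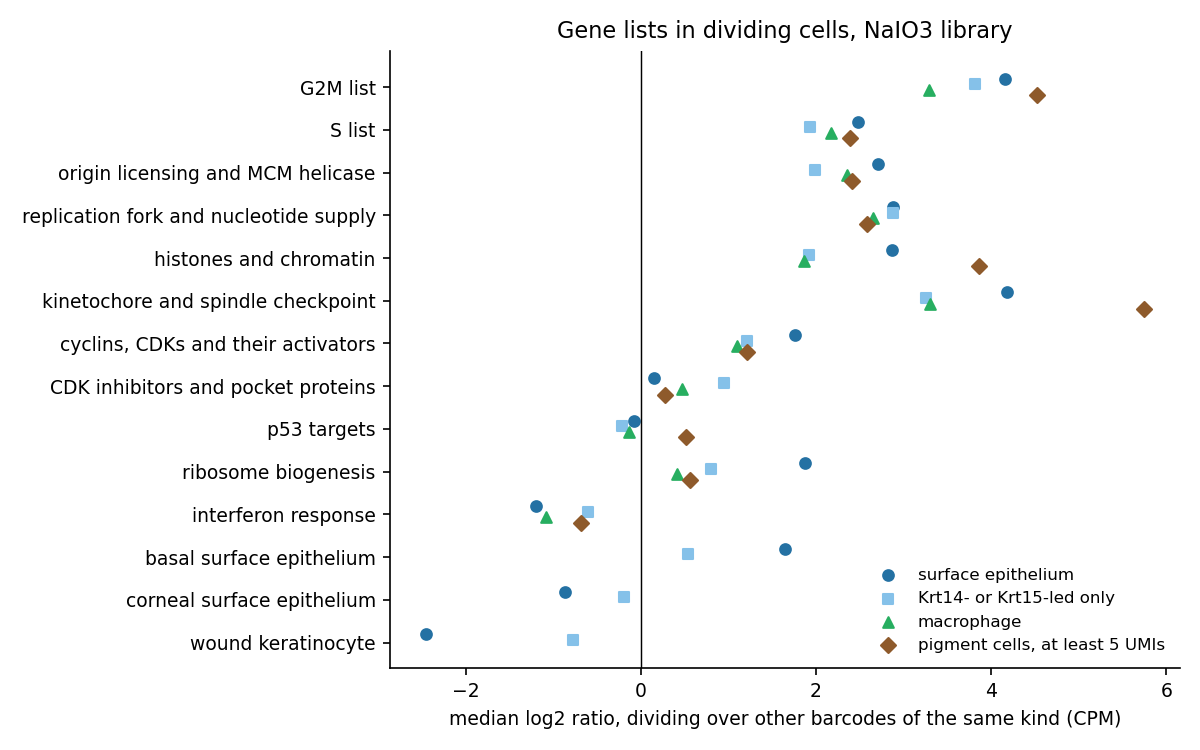
Median log2 ratio of CPM, dividing over other barcodes of the same kind in the NaIO3 library, for 14 gene lists (measured genes only); symbols give surface epithelium, its Krt14-led or Krt15-led barcodes only, macrophages and pigment cells, and the 3 epithelial lists are drawn for epithelium only. The G2M list lies at 4.16, 3.82, 3.29 and 4.53 in that order, and ribosome biogenesis at 1.88 in all surface epithelium and 0.80 in the Krt14-led or Krt15-led barcodes.

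The 27 macrophage members of NaIO3, 23 of them with at least 5 rule UMIs, carried phagocyte genes found across the class. Spp1 (osteopontin) was seen in 27 of 27, with a median of 467 UMIs per 10000 in members (lowest 8.81, highest 1796) and 288 in the 477 others. Trem2, a lipid receptor, was seen in 26 of 27, at medians of 16.0 in members and 20.6 in others, and Gpnmb, a lysosomal glycoprotein, in 26 of 27, at 59.0 and 69.2. Apoe, a lipid carrier, had 359.5 in members and 578 in others. Ccr2 and Ly6c2, markers of blood monocytes, were seen in 1 and 1 of 27 members, and in 2.94% and 1.26% of others. Of 11 genes of lipid-associated macrophages 0 passed 2-fold up and 0 down, with Spp1 the highest at a ratio of 1.51 and Apoe the lowest at 0.632. Of the Spp1 counts in members 32.8% came from 1 barcode. Of 6 resident microglia genes 0 were 2-fold higher and 1 lower (median log2 ratio 0.01). Cx3cr1, the fractalkine receptor, was seen in 24 of 27 members (88.9%) and 80.5% of others, with a ratio of 1.15 (0.976 to 1.33). The lower gene, P2ry12, a marker of resting microglia, was seen in 5 of 27 members (18.5%) and 33.3% of others, with a ratio of 0.338 (0.136 to 0.637).

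Gene by gene, 7968 genes were compared between the 27 dividing and 477 other macrophages. In dividing macrophages 5.31% were 2-fold higher and 4.74% lower, with a median log2 ratio of 0.08. Of those past 2-fold 52.8% were higher, and 35.8% under TMM scaling, which lowers each log2 ratio by 0.13. G2M genes were higher in 19 of 21 measured (median log2 ratio 3.29) and S genes in 15 of 18 (2.17), with 0 lower in both. Past 2-fold were 7 of 7 licensing and MCM genes, 12 of 12 fork genes and 8 of 8 histone and chromatin genes. 2810417H13Rik led, seen in 20 of 27 members (74.1%) and 3.35% of others, at a ratio of 78.8 (50.3 to 136). Ccna2 was seen in 21 of 27 (77.8%) and 1.68% of others, at a ratio of 72.8 (36.4 to 186). Nusap1, Pbk, Hist1h2ap, Ube2c, Ccnb2, Cdca3 and Cdca8 were among the first 15 as well, joined by Rrm2, Tk1 (thymidine kinase), Spc24 (kinetochore), Asf1b (a histone chaperone), Cks1b and Cdkn3. Of these 15 genes 8 were also among the first 15 of surface epithelium. Members of both classes were chosen by the same rule genes, so nothing is read from this sharing. Ccna2 overlaps Exosc9 on the opposite strand.

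Beyond division genes, 5 of 10 interferon genes were 2-fold lower in dividing macrophages and 0 higher (median log2 ratio -1.09). Summed, the list differed less, at 998 CPM in dividing and 1228 CPM in other macrophages. Isg15 had 13 counts in dividing against 346 in other barcodes, a ratio of 0.427 (0.217 to 0.713). It was seen in 29.6% of members and 38.8% of others, with medians of 0 in both. Ribosome biogenesis had 1 of 10 past 2-fold (0.42). Cdkn2c and Cdkn2d were higher, at 4.59 (3.21 to 6.40) and 3.42 (2.30 to 4.89). Cdkn1a was at 0.908 (0.721 to 1.12), and 35.6% of its counts in members came from 1 barcode. Ccnd2, a D cyclin, had 5 counts in dividing (8.93 CPM) against 231 in other barcodes (37.6 CPM). It was seen in 18.5% of members and 16.6% of others. Of 6 MHC class II genes 1, H2-Aa, was past 2-fold at 2.05 (1.78 to 2.33), and 68.6% of its counts in members came from 1 barcode. The lowest genes included Dcn, Cxcl9, Ccl5, Mmp3, Hspa1a, Igfbp4, Col1a2, Tagln and Chil1. Of these Dcn, Col1a2 and Tagln are known from fibroblasts or smooth muscle. Dcn had 2 counts in dividing (3.57 CPM) against 582 in other barcodes (94.8 CPM), where 51.0% came from 1 barcode. Col1a2 had 7 counts in dividing (12.5 CPM) against 403 in other barcodes (65.7 CPM). It was seen in 22.2% of members and 22.2% of others. Summed fibroblast markers reached 1.48 UMIs per 10000 at most in dividing and 263 in other macrophages, with medians of 0 in both, and the part of fibroblast RNA in these low genes was not tested.

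The balance of replication and mitosis genes was set against that of the other NaIO3 barcodes of each class. The share of S-list UMIs in the sum of both lists had a median of 16.4% in surface epithelium members and 20.0% in others. In macrophages it was 19.3% in members and 40.0% in others. More S than G2M UMIs were found in 5 of 95 surface epithelium members (5.26%, 1.73 to 11.9), against 4.56% of other surface epithelium barcodes. In macrophages they were found in 9 of 27 members (33.3%, 16.5 to 54.0), against 28.5% of others. Of these 9, 3 were among the 4 macrophage members with 3 or 4 rule UMIs. Among those with at least 5 rule UMIs it was 6 of 23 (26.1%, 10.2 to 48.4). Each of these intervals includes the share in the other barcodes of the class. The rule genes belong to G2 and mitosis, and of the 56 NaIO3 barcodes with 3 UMIs of the replication set 4 were not members.

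Among pigment cells, the place of members along the RPE-marker level depended on the UMI limit. At 3 rule UMIs the NaIO3 shares were 7 of 117 (5.98%) at 50 to 100 RPE-marker UMIs per 10000, 11 of 514 (2.14%) at 100 to 150, 14 of 961 (1.46%) at 150 to 200 and 17 of 763 (2.23%) above. In PBS they were 0 of 82 (0%), 1 of 500 (0.200%), 4 of 1123 (0.356%) and 16 of 1991 (0.804%) in the same steps. After these values were seen, dividing pigment cells were counted as pigment barcodes (at least 50 RPE-marker UMIs per 10000, below both other limits) with at least 5 rule UMIs. At this limit of 5, most NaIO3 cells lay at the lower RPE-marker levels. There were 14 in NaIO3, of which 8 were of the RPE class and 6 lay under its limit, and 1 in PBS, of the RPE class. Among NaIO3 barcodes with 50 to 100 RPE-marker UMIs per 10000 the count was 6 of 117 (5.13%, 1.90 to 10.8), against 5 of 514 (0.973%, 0.317 to 2.26) at 100 to 150, 2 of 961 (0.208%, 0.0252 to 0.750) at 150 to 200 and 1 of 763 (0.131%, 0.00332 to 0.728) above. In PBS the counts in the same steps were 0 of 82, 1 of 500, 0 of 1123 and 0 of 1991. Near the RPE limit, 3 NaIO3 members lay within 20% below it and 5 within 20% above.

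**Figure D5:**
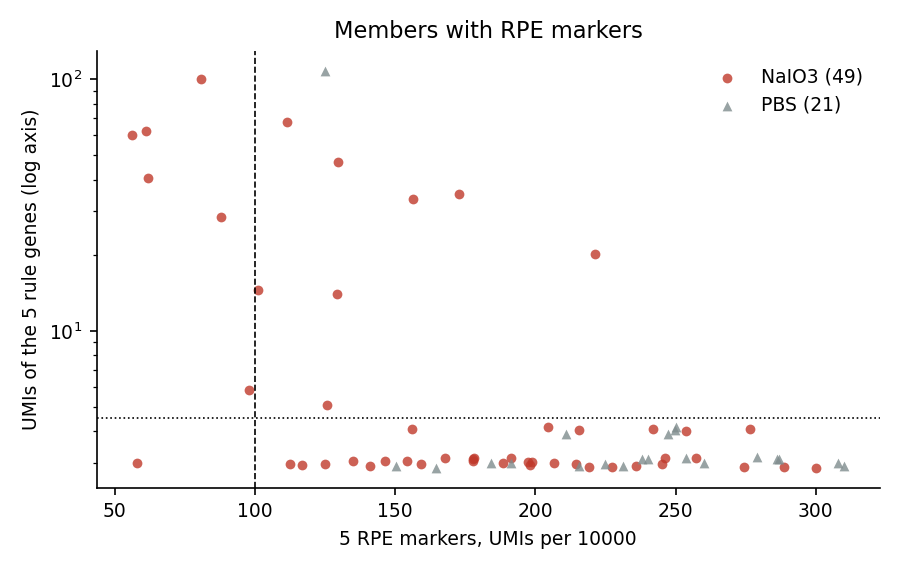
Members with at least 50 RPE-marker UMIs per 10000 and below the other class limits, by their RPE-marker level and their UMIs of the 5 rule genes (log axis, spread slightly), NaIO3 circles and PBS triangles; the dashed line is the RPE limit at 100 and the dotted line separates 4 from 5 rule UMIs. Above the dotted line are 14 NaIO3 barcodes, 6 of them left of the dashed line, and 1 PBS barcode, while below it NaIO3 and PBS barcodes mix.

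The 14 dividing pigment cells of NaIO3 had 5 to 97 rule UMIs (median 34) and the PBS one 104. Their G2M level had a median of 56.5 UMIs per 10000 (8.96 to 128), against 7.65 in 2306 other pigment barcodes, and the PBS cell had 116. The cells with 8.96, 10.4 and 23.5 lay within the range of those other barcodes, which reached 26.9. For them the name dividing is less certain. Surface epithelium markers were at 5.96 to 16.3 per 10000 in the 14 (median 9.92), against a median of 12.9 in the others. Macrophage markers were at 3.92 to 12.4 in the 14 (median 7.39), against a median of 10.9. Sox10 and Kit, genes of neural crest melanocytes, had 0 to 3 and 0 to 1 UMIs in each. Otx2, a transcription factor of the RPE, was seen in 14 of 14 and in the PBS cell. The 14 were deep, with a median of 27784 UMIs (6433 to 58763) against 9509.5 in the others. Their mitochondrial share had a median of 6.82%, against 11.7% in the others. The part of depth, of mitochondrial share and of doublets of like cells in these values was not tested.

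In summed counts of the 14 cells a few RPE genes were past 2-fold against other pigment barcodes. The visual cycle genes Lrat and Rdh10 were lower and the melanin genes Mlana and Pmel higher, Pmel mostly through 2 cells. The comparison covered 11510 genes, of which 12.1% were 2-fold higher and 11.4% lower in the 14. Of 9 visual cycle genes 0 were 2-fold higher and 2 lower (median log2 ratio -0.78), and 5 of them, Rpe65, Rlbp1, Rgr, Lrat and Rdh5, are also markers by which pigment barcodes were taken. Rpe65, the isomerase of the visual cycle, had a median of 14.8 UMIs per 10000 (3.30 to 46.2) in the 14 and 30.1 in the other NaIO3 pigment barcodes, a ratio of summed CPM of 0.536, short of 2-fold, and 15.1 in the PBS cell. Lrat, which makes retinyl esters, had 5.78 in the 14 against 14.7, and Rdh10, a retinol dehydrogenase, 6.55 against 17.9, with ratios of summed CPM of 0.407 (0.359 to 0.458) for Lrat and 0.402 (0.359 to 0.448) for Rdh10. Ttr, which carries thyroid hormone, had a ratio of 1.02. Of 8 melanin genes 2 were past 2-fold. Mlana was at 3.31 (2.86 to 3.81), seen in 14 of 14 and 55.6% of others. Pmel was at 3.01 (2.57 to 3.49). Of its 177 UMIs in the 14, 88 (49.7%) came from 1 cell, the one with a G2M level of 8.96, and 49 from another. In the PBS cell both genes were below the other PBS pigment barcodes. There Mlana was at 84.0 CPM (3 UMIs) against 99.6 CPM and Pmel at 28.0 CPM (1 UMI) against 82.9 CPM. Pmel overlaps Cdk2 and Dgka on the opposite strand. Of 7 mesenchymal genes 1, Vim (vimentin), was higher, with 243 CPM in dividing against 61.0 CPM in other barcodes, and 1, Col1a1, was lower (median log2 ratio -0.27). Of 6 RPE transcription factor genes 1 was 2-fold higher and 0 lower (median log2 ratio 0.05). Mitf, a melanin regulator, and Otx2, with ratios of 1.22 (0.852 to 1.66) and 0.902 (0.748 to 1.07), did not pass 2-fold. Pax6 was at 52.1 CPM (23 UMIs) in the 14 against 19.3 CPM in other barcodes, seen in 12 of 14 and 19.1% of others.

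Among cell cycle inhibitors and pocket proteins 4 of 9 were higher in these cells and 1 lower. Cdkn2c (p18) was seen in 10 of 14 and 2.69% of others, with a ratio of 89.3 (64.2 to 125). Cdkn1a had 3.30 (2.57 to 4.13), seen in 13 of 14 and 38.6% of others, with 47.4% of its counts from 1 cell. Its ratio was above 1 here and below 1 in dividing surface epithelium, a difference that was not tested. Ccnb2 had 107.6 (66.8 to 179), and Pbk was seen in 14 of 14 and 1.17% of others. The histone gene Hist1h2ap was seen in 7 of 14. Of 30 G2M genes 24 were higher (median log2 ratio 4.53) and of 28 S genes 21 (2.39).

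All 42 RPE-class members, 34 of them with 3 or 4 rule UMIs, were also set against the 2196 others. Of 11424 genes 3.15% were 2-fold higher and 5.27% lower in the 42. The highest genes were Pbk, Rrm2, Hist1h2ap, Lockd, Cenpa, Cdca3, Tk1, Cdca8, 2810417H13Rik, Spc25, Nusap1, Cenpm, 2210011C24Rik, Cenpf and Knstrn. Pbk was seen in 9 of 42 members, and 58.3% of the Cenpa counts in members came from 1 barcode. The lowest were Serpine3, Slc7a5, Snx19, Msantd3, Clasrp, Wfikkn2, Wrap53, Rhobtb1, Mbd6 and Sult1c1. Serpine3, a serpin, was seen in 47.6% of members and 50.6% of others, while its summed level was 59.7 CPM in members and 442 CPM in others. Serpine3 overlaps Ints6 on the opposite strand. Of 25 G2M genes 17 were higher (median log2 ratio 1.98) and of 28 S genes 15 (1.19). Summed G2M genes were at 4024 CPM in the 8 members with at least 5 rule UMIs and at 756 CPM in the 34 with 3 or 4, against 779 CPM in the others.

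Of the 12 NaIO3 members in no class, 6 are the pigment cells under the RPE limit described above. Another carried markers of NK cells (35.9 UMIs per 10000) and T cells (28.3), with 42 rule UMIs and 148 G2M UMIs per 10000. A barcode with 9 rule UMIs had 22.5 Muller glia marker UMIs per 10000, and 23.1 of G2M genes. A barcode with 3 rule UMIs carried fibroblast markers at 24.0 and mural markers at 59.3, with a G2M level of 8.69, and a barcode with 4 rule UMIs carried them at 20.0 and 16.4, with a G2M level of 7.72. The last 2, with 3 rule UMIs each, had RPE markers at 32.8 and 57.8 and melanocyte markers at 47.3 and 45.6, with G2M levels of 6.12 and 6.09. The unclassed PBS member had endothelial markers at 30.9, with 4 rule UMIs and more S than G2M UMIs (44 and 29). Single barcodes of this kind carry no name beyond these markers.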

How the data were processed

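The deposited matrices hold raw UMI counts per gene and barcode for 2 droplet libraries. The authors made them with Cell Ranger 3.0.2 on mm10, per the submitters' processing notes. The annotation, the calling of cells and the use of strand are not stated in the labels. The quality limits on barcodes removed 114 in NaIO3 and 231 in PBS. A barcode over 1 class limit was counted in that class, and barcodes over more than 1 limit were kept apart. Doublets stayed in: Scrublet (scanpy 1.11.5) marked too few by its own threshold, so the highest scores, 0.8% per 1000 barcodes (124 in NaIO3, 154 in PBS), were left out only as an alternative. Thinning to 4000 UMIs drew without replacement (seed 1). Shares have Clopper-Pearson, levels Poisson and ratios conditional binomial 95% intervals, and a count of 0 allows 3 counts. Computation used Python 3.11.15, numpy 2.4.6, scipy 1.17.1 and pandas 2.3.3, and the ratios were checked on simulated data. Gene positions and overlaps came from GENCODE M21 (27645 of 27998 rows matched).

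Named genes were ranked per class, among those with at least 50 counts, by the interval bound nearest to 1, with the first 15 higher and the first 10 lower, of which 1 is not reported here. The ranking left out the rule genes, genes of mitochondria, ribosomal proteins and haemoglobin, predicted genes, sex-linked RNAs and Y genes, and genes under 0.1 of their level in another class. Other genes come from 28 gene lists (408 of 409 list and marker genes matched) or from RPE lists added after values were seen, and those shown as examples were chosen with their values known. The members and lists were chosen with earlier results of these data known. The alternatives cover the UMI limit, each rule gene, the barcode and class limits, doublets, depth, scaling, pseudocount and the filter on low counts.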

Additional observations from a re-analysis of the deposited data

How the results depend on the processing

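No paired analysis was possible because each group is 1 library, and no replicate can be left out for the same reason. The number of members followed the rule: it was 369 in NaIO3 and 101 in PBS at 2 UMIs, 116 in NaIO3 and 4 in PBS at 5 UMIs, and 95 in NaIO3 and 5 in PBS after thinning to 4000 UMIs. In PBS it was 51 at 2 rule UMIs per 10000, 5 without Cdk1 and 9 by the mitosis set. The RPE-class share was 7.37% in NaIO3 and 2.57% in PBS at 2 UMIs, 0.357% in NaIO3 and 0.0277% in PBS at 5 UMIs, 0.357% in NaIO3 and 0.0277% in PBS without Cdk1, 0.268% in NaIO3 and 0.0573% in PBS thinned, and 0.536% in NaIO3 and 0.138% in PBS by the mitosis set. It was 3.64% in NaIO3 with a mitochondrial limit of 10%, and 0.996% in PBS at 2 rule UMIs per 10000. The NaIO3 surface epithelium share was 10.9% at 5 UMIs, 10.8% without Top2a, 9.61% thinned and 10.9% by the mitosis set, and the macrophage share 9.13% at 2 UMIs and 3.37% thinned.

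Genes 2-fold higher and lower in dividing surface epithelium numbered 1387 and 781. They were 732 and 1315 under TMM scaling, 3894 and 1433 with no filter on low counts, and 285 and 199 in Krt14-led or Krt15-led barcodes, a setting chosen after seeing the data. With genes of at least 20 counts 2157 were higher. In macrophages they numbered 423 and 378, against 273 and 156 at 2 UMIs, 1078 and 29 with a pseudocount of 5, 879 and 712 at 20 counts and 4077 and 1058 with no filter. The G2M median log2 ratio was 4.79 at 20 counts and 4.79 with no filter in surface epithelium, and 2.62 at 2 UMIs, 3.93 at 20 counts and 4.22 with no filter in macrophages.

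Directions turned in a few cases. At 2 UMIs the log2 ratios of Ccl5 and Col1a2 in macrophages were 0.70 and 1.204, and that of Rhobtb1 in the RPE class 0.14. With class limits doubled, RPE-class medians were -0.043 for G2M, -0.27 for licensing and MCM and -0.21 for condensin and cohesin genes, and Cenpa was at -1.20. Except where a setting changes the genes counted or the barcodes taken, the cause was not tested. Among other values, 195 counts, shares and medians that answer a comparison moved by less than the spread allowed, as did 929 values of single named genes, while 142 of those moved and the 4 above turned. Depth limits the low end: at 3 or 4 UMIs a member rests on few molecules. For macrophages, 0 of 121 PBS barcodes still allows a share of up to 2.48%.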
